A study of Homo sapiens with 12 samples.

Results

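Expression in RPMI8226 was compared with expression in MMS1 on the 6 arrays of cells that carried a control sponge, 3 arrays for each line, out of 12 arrays in all. Every probe set other than the Affymetrix control probe sets was a member, 54613 in number, and they stand for 19775 genes. RPMI8226 (written RPMI or RPMI826 in some labels) and MMS1 are named in the labels as multiple myeloma lines, that is, lines of malignant plasma cells. In these groups the cells of each line had been transduced with a lentivirus that carries GFP and a mock control sponge. The cells of the other 6 arrays, 3 for each line, carried a sponge against miR-16 in its place. Transduced cells were sorted by flow cytometry and expanded, and the lines were grown side by side for a week and lysed together. Both groups thus share the vector, GFP, the sort and the expansion. The labels do not say whether the 3 arrays of a group came from separate transductions, so the p-values measure the spread between these arrays, which may be technical. The comparison describes how the lines differed before any sponging of miR-16.

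Plasma cells secrete antibody and are known for high SDC1 and CD38, the receptor TNFRSF17 and the transcription factors IRF4, PRDM1 and XBP1, which run the secretory program. Erythroid cells, by contrast, are run by GATA1 and KLF1 and fill with globin: HBE1 and HBZ are the embryonic globins, and HBB and HBD the adult beta-type globins. Signals are given here on the log2 scale, on which the deposited values have a lower bound of 4 and a difference of 1 is a 2-fold difference. The median of all 19775 genes over their own arrays was 6.45.

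Of the defining plasma cell markers, 3 were below the median of all genes on all 6 arrays. TNFRSF17, the B-cell maturation antigen, read 4.02, 4.56 and 4.74 in RPMI8226 and 4.52, 4.69 and 4.70 in MMS1. JCHAIN, which joins secreted antibody molecules, read 4 to 4.18 in RPMI8226 and 4.35, 4.39 and 4.71 in MMS1, and CD38 lay between 4.42 and 5.33 in RPMI8226 and between 4.73 and 5 in MMS1. Against this, HBE1 read 14.26 to 14.30 in RPMI8226 and 14.38 to 14.40 in MMS1, and GATA1 lay between 9.66 and 9.83 in RPMI8226 and between 9.65 and 9.84 in MMS1. KLF1 lay between 9.65 and 9.94 over the 6 arrays. IRF4 lay between 6.18 and 6.67, near that median, and PRDM1 read 6.26, 6.12 and 6.54 in RPMI8226 and 5.39, 5.71 and 5.99 in MMS1. PRDM1 was not called (adjusted p = 0.0786), though it was with array weights, gene means, a floor on signal or a trended prior (differences of 0.53 to 0.63). SDC1 (8.60 to 9.03) and XBP1 (8.29 to 8.63) were above the median, and neither differed between the lines at the threshold used (limma, adjusted p = 0.321 and 0.158). The markers were thus mixed: TNFRSF17, JCHAIN and CD38 went against the label, SDC1 and XBP1 did not, and the erythroid markers were high. The groups are called by their labels below.

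Of 20 plasma cell genes measured, 2 were called higher in RPMI8226, ITGA4 and SEC11C, and 0 higher in MMS1. SEC11C lost its call without MMS1 array 2 or 3 or any RPMI8226 array (adjusted p = 0.0505 to 0.076), which left 1. A gene was called where limma's moderated test gave a Benjamini-Hochberg adjusted p under 0.05 over all probe sets. Of the 8 immunoglobulin genes, 16 B cell, 17 T and NK cell and 14 megakaryocyte genes measured, 0 were called in either direction, where 10.3% of all genes were. The mean signal of the immunoglobulin list was 6.08 to 6.17 on the RPMI8226 arrays and 5.98 to 6.18 on the MMS1 arrays. That of the B cell list was 5.79 to 5.89 and 5.76 to 5.8. The lines did not stand apart in the markers of these cell types.

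In all, 2041 of 19775 genes were called (10.3%). RPMI8226 was higher for 1289 (6.52%) and MMS1 for 752 (3.8%). At least 2-fold differences were found for 169 genes higher in RPMI8226 (0.855%) and 106 higher in MMS1 (0.536%), and differences over 8-fold for 7 and 8 genes. Most called differences were small: 1766 were under 2-fold, and the median size was 0.58 on the log2 scale. The balance between directions moved with the scaling of the arrays. RPMI8226 was higher in 63.2% of called genes on the deposited scale and in 52.1% after quantile normalization (1212 and 1114 genes), which shifted the median difference of all genes from 0.025 to -0.018. The 3 arrays of a line lay wholly above the 3 of the other for 6423 genes (32.5%), and for 2037 of the 2041 called ones.

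**Figure D1:**
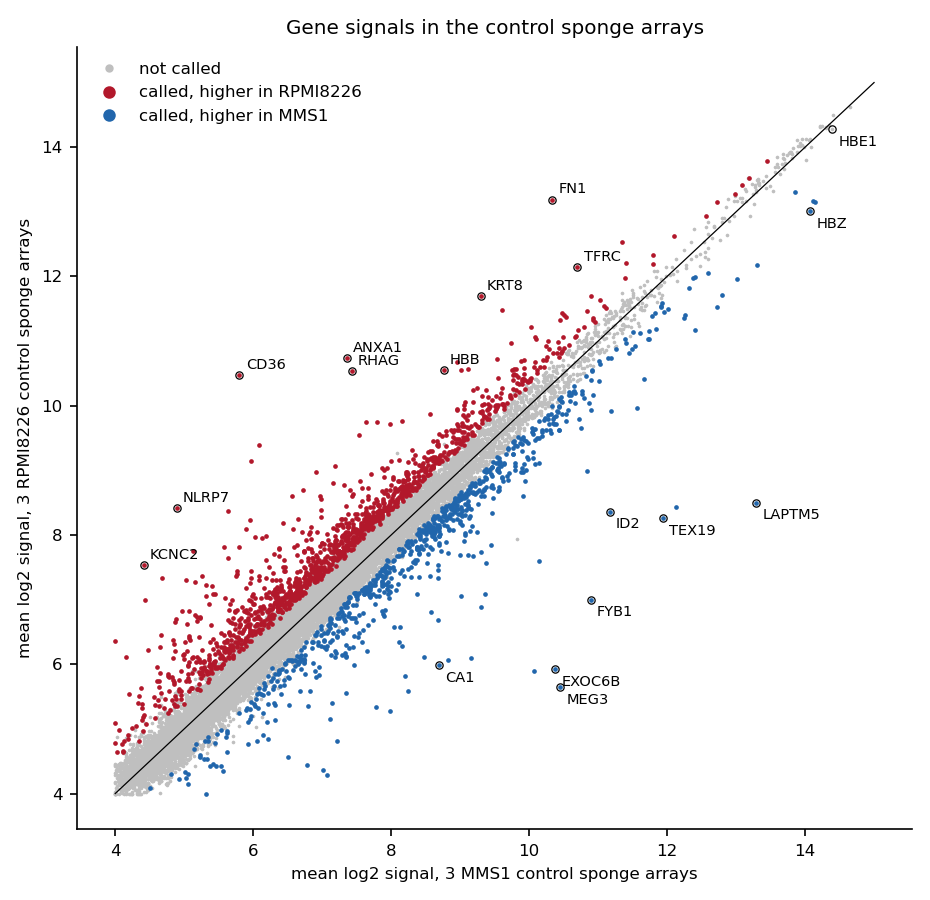
Each point is a gene, with its mean log2 signal over the 3 MMS1 control sponge arrays on the x axis and over the 3 RPMI8226 control sponge arrays on the y axis; colours mark the 2041 called genes and the line marks equal signal. Most genes lie on the diagonal, with CD36 and NLRP7 far above it, MEG3, EXOC6B and LAPTM5 far below it, and HBE1 on it.

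Correlations over genes were 0.98 to 0.986 within RPMI8226, 0.984 to 0.986 within MMS1 and 0.968 to 0.971 between them. The array medians lay between 5.83 and 5.9. The 3′ probes of the ACTB control exceeded the 5′ probes by 0.18 to 0.28 in RPMI8226 and by 0.08 to 0.21 in MMS1, those of GAPDH by 0.02 to 0.1 and 0.06 to 0.12, and the mean 18S signal was 9.56 to 10.83 and 9.98 to 10.65. ACTB itself was lower in RPMI8226 (13.3 ± 0.03 against 13.86 ± 0.01, SD, n = 3 each; limma, adjusted p = 0.00219). The part of RNA quality in these results was not tested. All 12 arrays shared 1 estimate of the spread, and array 1 of MMS1 with the miR-16 sponge stood apart in its 18S signal (7.84). Without it 1551 genes were higher in RPMI8226 and 892 in MMS1, and 168 and 105 of them at least 2-fold.

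The largest difference in favour of MMS1 was in MEG3, an imprinted non-coding RNA. MEG3 read 5.85, 5.45 and 5.65 on the RPMI8226 arrays and 10.15, 10.51 and 10.71 on the MMS1 arrays. The groups lay far apart, a 28.0-fold difference (log2 difference -4.81, SE 0.158, limma, adjusted p = 1e-09), seen in 5 of its 10 probe sets. LAPTM5, a lysosomal membrane protein of blood cells, read 8.52, 8.62 and 8.35 in RPMI8226 and 13.38, 13.18 and 13.31 in MMS1. The MMS1 arrays were all above the RPMI8226 arrays, by 27.7-fold on average (SE 0.129 log2, adjusted p = 2.78e-10, both probe sets). EXOC6B, a subunit of the exocyst that tethers secretory vesicles, read 5.84, 5.88 and 6.04 against 10.40, 10.36 and 10.37, a 22.0-fold difference (SE 0.21, adjusted p = 2.98e-08). MFNG, a glycosyltransferase that modifies Notch receptors, read 6.14, 6.04 and 5.52 against 10.13, 9.99 and 10.10. FYB1, an adaptor of immune receptor signalling, read 7.19, 6.99 and 6.82 against 10.84, 10.88 and 10.95, and all 5 of its probe sets were called. In each of these genes the 3 MMS1 arrays were all above the highest RPMI8226 array, which the choice of the leading genes required.

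TEX19, a germ-cell gene, read 8.22, 8.25 and 8.30 in RPMI8226 and 11.95, 11.90 and 11.97 in MMS1, with the smallest adjusted p among the genes described here (2.37e-10, 12.8-fold). PLA2G2A, a secreted phospholipase, was 8.32-fold higher in MMS1, with 5.73, 6.15 and 6.40 against 9.22, 8.99 and 9.24. ID2, which blocks DNA binding by basic helix-loop-helix factors, read 8.23, 8.41 and 8.44 against 11.18, 11.15 and 11.18, a 7.02-fold difference. Among the other 7 of the 15 genes that led in MMS1, PASD1 (6.81-fold), DOCK2 (6.5-fold, a guanine nucleotide exchange factor of blood cells), LINC00462 and SNHG24 were below the median of all genes in RPMI8226, with array values of 4 to 6.33. Probe sets disagreed for 3 of them. RAP1A, a small GTPase, differed 12.9-fold on its brightest probe set, with a wide spread in RPMI8226 (9.17, 7.64 and 8.50), but was called on 2 of its 4 probe sets. HMGA2 was called on 1 of 9 and CA1 on 1 of 2. Probe sets marked _x_at or _s_at may read more than 1 transcript, and the others are called specific here. On specific probe sets RAP1A and HMGA2 changed sign, with 0.13 and 0.04 (limma, adjusted p = 0.568 and 0.897). CA1 and MFNG lost nearly all of the difference there, with -0.03 and -0.43 (adjusted p = 0.965 and 0.0603).

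In the other direction CD36 led, the scavenger receptor that takes up fatty acids and is found on red cell precursors. CD36 read 10.41, 10.53 and 10.48 on the RPMI8226 arrays and 5.48, 5.91 and 6 on the MMS1 arrays. That is a 25.6-fold difference (log2 difference 4.68, SE 0.139, limma, adjusted p = 5.3e-10), called on 4 of 5 probe sets. NLRP7, a member of the NLR family known for maternal-effect mutations in hydatidiform mole, read 8.42, 8.37 and 8.47 against 4.82, 4.86 and 5. Before rounding it was the 1 gene under 5 on every array of one line and over 8 on every array of the other. ANXA1, a calcium-dependent phospholipid-binding protein, read 10.72, 10.76 and 10.74 against 7.34, 7.2 and 7.55, a 10.4-fold difference. RHAG, the partner of the Rh blood group proteins in the red cell membrane, read 10.47, 10.61 and 10.52 against 7.43, 7.4 and 7.46 (8.6-fold, all 3 probe sets).

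FN1, the matrix protein fibronectin, was bright in both lines and still 7.22-fold higher in RPMI8226. Its values were 13.12, 13.24 and 13.20 against 10.43, 10.29 and 10.28, and all 7 probe sets were called. The keratins of simple epithelia moved the same way: KRT8 read 11.78, 11.64 and 11.66 against 9.31, 9.26 and 9.33 (5.26-fold), and KRT18, its dimer partner, read 12.54, 12.52 and 12.55 against 11.37, 11.26 and 11.41 (2.28-fold). KRT19 went the other way by 0.35 on the log2 scale, a call lost without any single control array other than MMS1 array 2. KRT8 and KRT18 each had 1 probe set that names the gene alone, marked _x_at, so neither could be read on a specific one. EPCAM, which marks epithelial cells, read 8.14 to 8.44 and 8.03 to 8.09 and was not called (adjusted p = 0.37). In all, 3 of 12 epithelial markers were called (25%, against 10.3% of all genes). The part of epithelial markers in other results was not tested.

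ZFP42, a zinc finger protein of pluripotent cells, was 9.05-fold higher in RPMI8226 and KCNC2, a potassium channel, 8.71-fold, with MMS1 arrays of 4.29, 4.46 and 4.47. On specific probe sets ZFP42 was 0.56 (adjusted p = 0.139) and lost its call. GJA1, the gap junction protein connexin 43, read 7.31, 7.46 and 7.21 against 4.52, 4.75 and 4.78 (6.24-fold). SOSTDC1, a secreted BMP antagonist, was at 4 on the 3 MMS1 arrays, so the difference of 2.36 from RPMI8226 (6.19, 6.21 and 6.68) is measured from the bound of the values and may be larger. USP22, a deubiquitinase of the SAGA complex, differed 9.89-fold on 1 of its 4 probe sets and MAGEC2, a cancer-testis antigen, 5.97-fold on 1 of 2. IL20RA, a cytokine receptor, stood apart by its spread. RPMI8226 read 8.35, 8.43 and 8.32, while MMS1 array 1 read 8.25 and MMS1 arrays 2 and 3 read 4.32 and 4.34. The difference of 2.73 (limma, adjusted p = 0.0366) became 4.03 without MMS1 array 1 (adjusted p = 6.13e-09), and the call was lost without MMS1 array 2 or 3 (adjusted p = 0.155 and 0.144) or any RPMI8226 array (0.0827 to 0.1). On a specific probe set it was 0.43 (adjusted p = 0.0566).

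**Figure D2:**
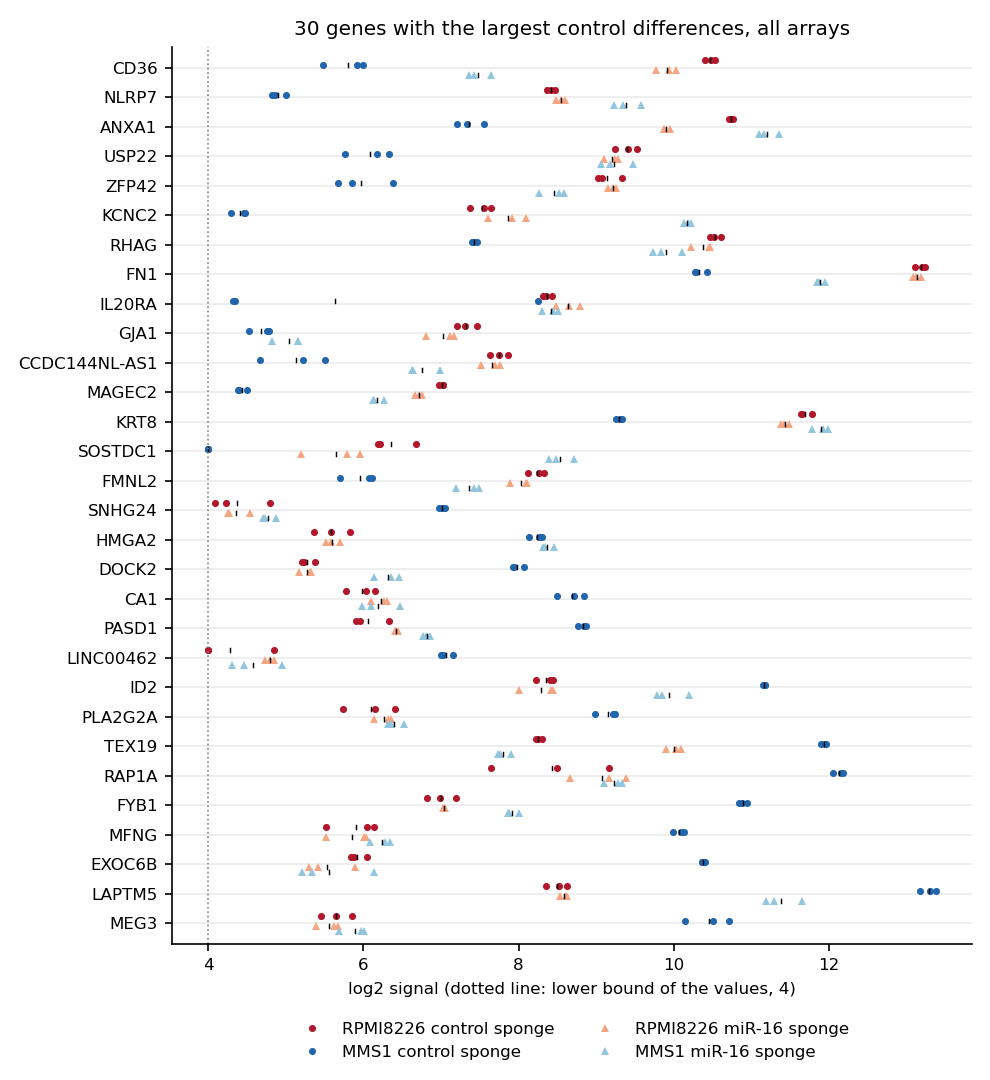
Log2 signal on the x axis of the 15 genes that led in each direction, 1 row a gene; points are arrays (circles control sponge, triangles miR-16 sponge), short bars are group means and the dotted line is the lower bound of 4. Red and dark blue circles do not overlap, as the choice of genes required, and are well separated in each row other than IL20RA. There MMS1 array 1 (8.25) sits beside the RPMI8226 arrays. The light blue triangles of many genes lie away from the dark blue circles.

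Promoter sequences are shown for 4 of these genes, picked because they span the range of CpG density. The choice of the leading genes themselves did not use that feature. Each is the 250 bases before the RefSeq start of the gene on GRCh38.p14, 5′ to 3′ on the gene's strand, with CG pairs in capitals. CD36 lies at chr7:80601957-80602206 (plus strand), LAPTM5 at chr1:30757775-30758024 (minus strand), FN1 at chr2:215436069-215436318 (minus strand) and ID2 at chr2:8681806-8682055 (plus strand).
CD36: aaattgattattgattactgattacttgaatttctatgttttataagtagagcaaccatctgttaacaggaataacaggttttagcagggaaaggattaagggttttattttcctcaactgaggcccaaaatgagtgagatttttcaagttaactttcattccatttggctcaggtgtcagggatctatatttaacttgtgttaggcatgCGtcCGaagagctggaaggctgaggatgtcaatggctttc
LAPTM5: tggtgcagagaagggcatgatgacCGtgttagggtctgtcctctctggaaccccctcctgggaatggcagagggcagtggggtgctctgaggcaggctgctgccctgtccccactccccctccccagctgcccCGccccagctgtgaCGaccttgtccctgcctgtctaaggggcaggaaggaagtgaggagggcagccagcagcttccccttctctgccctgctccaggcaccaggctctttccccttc
FN1: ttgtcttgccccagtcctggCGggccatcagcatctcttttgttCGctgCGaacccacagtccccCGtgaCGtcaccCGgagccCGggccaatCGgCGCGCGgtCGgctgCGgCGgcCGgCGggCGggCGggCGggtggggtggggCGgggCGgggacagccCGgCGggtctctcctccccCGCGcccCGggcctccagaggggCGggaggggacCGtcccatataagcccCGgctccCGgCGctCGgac
ID2: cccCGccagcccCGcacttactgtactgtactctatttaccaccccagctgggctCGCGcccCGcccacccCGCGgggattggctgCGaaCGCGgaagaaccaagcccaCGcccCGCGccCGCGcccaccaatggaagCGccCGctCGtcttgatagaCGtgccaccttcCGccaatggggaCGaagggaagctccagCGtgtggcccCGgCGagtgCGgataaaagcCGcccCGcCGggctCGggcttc
The stretches of CD36 and LAPTM5 held 2 and 3 CG pairs, and those of FN1 and ID2 held 32 and 29. CD36 and FN1 were higher in RPMI8226 and LAPTM5 and ID2 in MMS1. Because these 4 were picked for their CpG density, they do not describe the promoters of either direction. Over 300 bases (250 before the start to 50 after it), a promoter was counted as CpG-rich with a GC share of at least 50% and an observed over expected CG ratio of at least 0.6. Of all 15357 genes with a promoter in the table, 64.4% were CpG-rich. With no floor on signal, the share was 80.8% of 1052 called genes higher in RPMI8226 and 72.2% of 594 higher in MMS1. Among called differences of at least 2-fold it was lower than among all called genes, 67.2% of 131 genes and 48.6% of 72. Of 9817 genes with a mean signal over 6, 75.7% were CpG-rich. With that floor the share among called differences of at least 2-fold was 66.4% and 50.8%. These shares are descriptions and were not tested.

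Single genes of blood cell signalling and the cytoskeleton, picked after their values had been seen, are given as values only. All but IL2RG, a member of the cytokine list, belonged to no list. RAC2, the Rac GTPase of blood cells, read 10.01, 9.89 and 9.99 in RPMI8226 and 11.63, 11.51 and 11.57 in MMS1 (3.04-fold). TMSB4X, which binds actin monomers, was 3.6-fold higher in MMS1, and IL2RG, the common gamma chain of cytokine receptors, 2.68-fold. GMFG, ELMO1 and CD52 were near the bound in RPMI8226 (4 to 5.27) and between 6.43 and 7.29 in MMS1. PTPN7, LCP2 and ARHGEF6 were 5.34-, 3.35- and 4.83-fold higher, but on specific probe sets PTPN7 was -0.36 and LCP2 -0.26 (adjusted p = 0.134 and 0.199). CORO1A and CD37, also blood cell genes, were dim in both lines and not called (adjusted p = 0.0829 and 0.473). Genes brighter in RPMI8226 outside the leading 15 included TSPAN13 (4.35-fold), IGFBP2 (4.12-fold, a binding protein of insulin-like growth factors), TPD52L1 (3.89-fold), ALDH1A1 (3.79-fold, a retinaldehyde dehydrogenase) and CD24 (3.66-fold, all 6 probe sets).

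**Figure D3:**
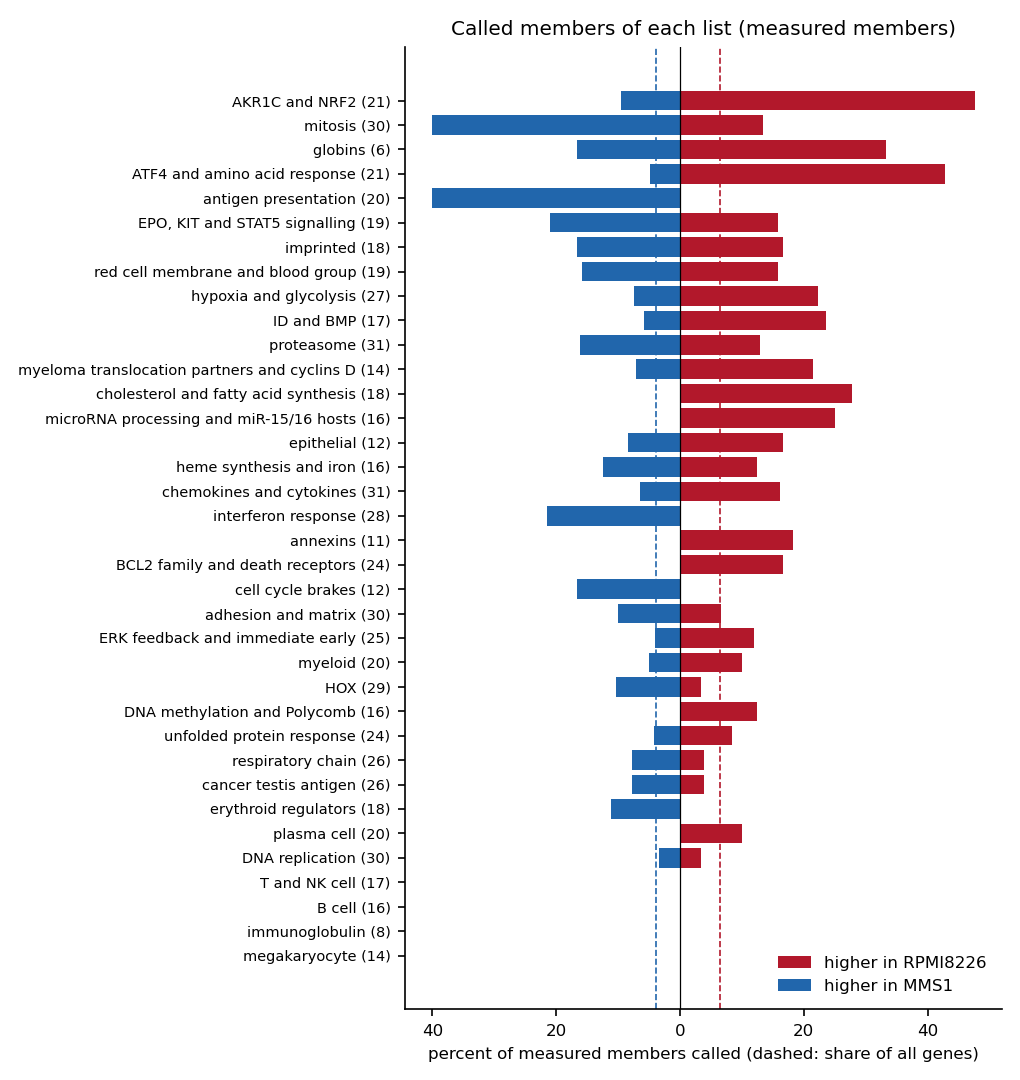
Bars give, for 36 gene lists, the percent of measured members (number in brackets) called higher in RPMI8226 (red, to the right) or in MMS1 (blue, to the left); dashed lines are the shares of all genes, 6.52% and 3.8%. The AKR1C and NRF2 list reaches furthest right, the mitosis and antigen presentation lists furthest left, and the immunoglobulin, B cell, T and NK cell and megakaryocyte lists have no bar.

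The globins differed by type. Of 6 measured, 2 were called higher in RPMI8226 and 1 in MMS1 (50% called, against 10.3% of all genes). HBB read 10.60, 10.52 and 10.51 in RPMI8226 and 8.58, 8.89 and 8.82 in MMS1, a 3.44-fold difference, and HBD, its near copy, read 8.82, 8.75 and 8.77 against 7.38, 7.30 and 7.26 (2.76-fold; limma, adjusted p = 3.98e-07). HBB and HBD share sequence and part of either signal may come from the other: on specific probe sets the HBB difference was 0.04 (adjusted p = 0.932). HBZ, the embryonic alpha-type globin, went the other way, with 13.03, 13.01 and 12.99 against 14.13, 14.02 and 14.07 (2.08-fold, adjusted p = 7.64e-06). HBE1, HBQ1 and HBM were not called (differences of -0.11, -0.2 and -0.02). The adult beta-type globins were thus higher in RPMI8226 and the embryonic zeta globin higher in MMS1 on these probe sets. In bulk samples, fewer cells with a transcript and less transcript per cell cannot be told apart.

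Called genes of heme and iron and of the red cell membrane lay in both directions. TFRC, the transferrin receptor, read 12.02, 12.25 and 12.17 in RPMI8226 and 10.73, 10.64 and 10.72 in MMS1 (2.73-fold), and UROD, an enzyme of heme synthesis, was 1.32-fold higher. SLC25A37, the mitochondrial iron importer, was 1.53-fold higher in MMS1 on its brightest probe set. Of its 10 probe sets, 3 were called higher in MMS1, 1 was called higher in RPMI8226 and 6 were not called. On the mean over its probe sets it was -0.22 and not called (limma, adjusted p = 0.108). ALAS2, the erythroid first enzyme of heme synthesis, was 1.52-fold higher in MMS1, but read 0.04 on its specific probe set (adjusted p = 0.948). Together 2 of 16 heme and iron genes were called in each direction (25% called, against 10.3% of all genes). Of 19 red cell membrane and blood group genes (31.6% called), CD36, RHAG and CA2 were higher in RPMI8226 and CA1, RHD and SLC4A1 in MMS1. CA1, a carbonic anhydrase, read 6.03, 6.15 and 5.78 against 8.72, 8.50 and 8.85, a difference that specific probe sets did not show (-0.03), while CA2, its relative, was 1.59-fold higher in RPMI8226. RHD, the Rh D antigen, was 1.91-fold higher in MMS1, opposite to its partner RHAG, but has a near-identical copy in RHCE, and its call was lost on specific probe sets (adjusted p = 0.155). Calls of UROD, ALAS2, CA2 and SLC4A1 were each lost when one of several single control arrays was left out.

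The share of erythroid regulators called was near that of all genes (11.1% against 10.3%). GATA1, KLF1, TAL1 and NFE2 were not called, with differences of -0.02, -0.13, 0.03 and -0.15. Of 18 regulators, 0 were called higher in RPMI8226 and 2 in MMS1. Those were GFI1B, a repressor that works with GATA1 (8.01 ± 0.07 against 8.59 ± 0.02, SD, n = 3 each), and LYL1 (9.56 ± 0.12 against 10.05 ± 0.13). LYL1 lost its call without MMS1 array 1 or 3 or RPMI8226 array 2 or 3. Of 19 genes of EPO, KIT and STAT5 signalling, 3 were higher in RPMI8226 (SOS1, BCR and PIM2, and 1 without MMS1 array 2 or 3 or RPMI8226 array 1 or 3) and 4 in MMS1. The 4 included SOCS1 and SOCS2, feedback inhibitors of cytokine receptors (1.6- and 1.42-fold), and PIM1, a kinase induced by STAT5 (1.53-fold). EPOR itself read 8.14 and 8.1 and KIT was dim in both lines.

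**Figure D4:**
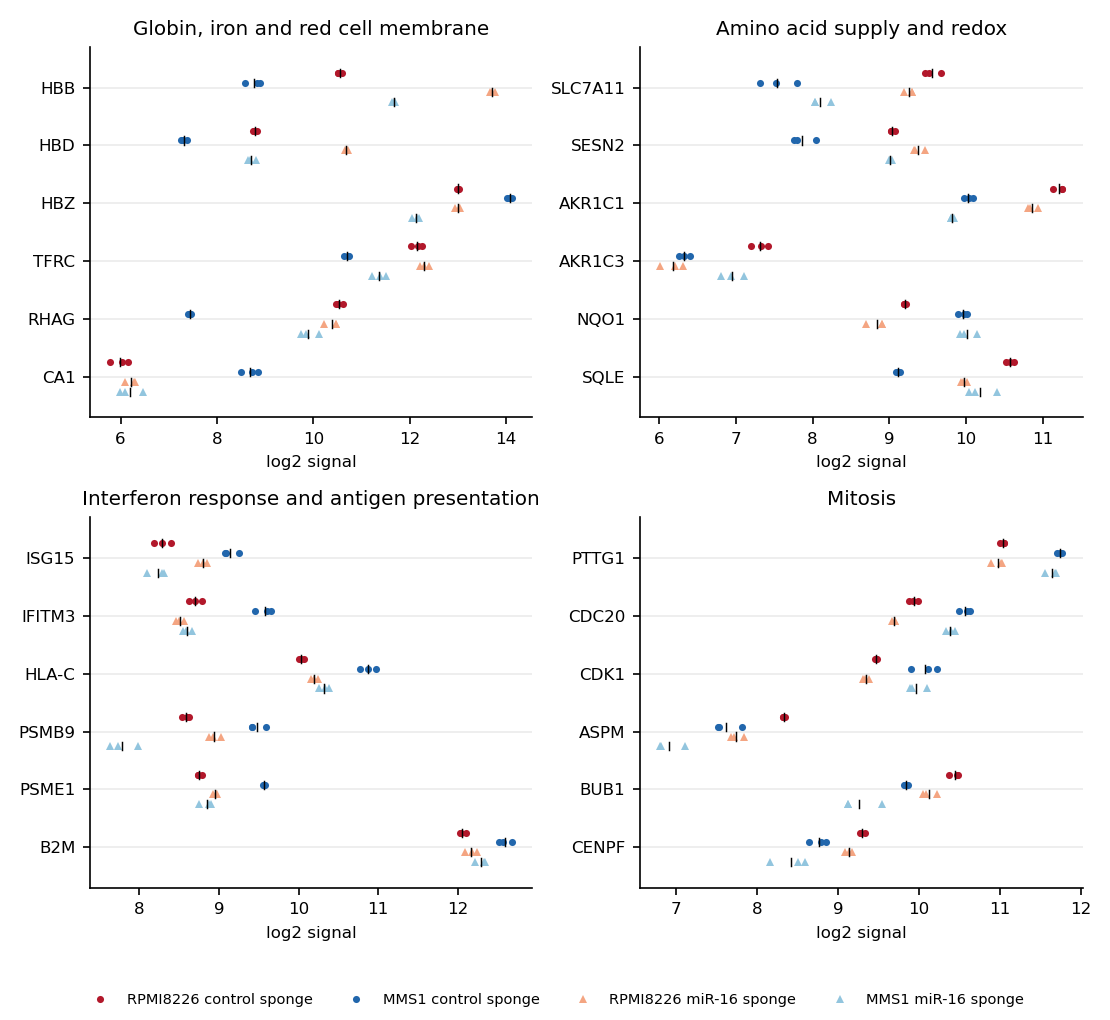
Log2 signal on the x axis for 6 genes of each of 4 groups; points are arrays (circles control sponge, triangles miR-16 sponge) and short bars are group means. HBB and HBD are to the right in RPMI8226 and HBZ in MMS1, SLC7A11 and AKR1C1 are to the right in RPMI8226, the interferon and antigen presentation genes are to the right in MMS1, and ASPM, BUB1 and CENPF run opposite to PTTG1, CDC20 and CDK1.

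Genes of the antioxidant response were the list with the largest share called among the 36. The lists were chosen with earlier results of these data known, so this rank may be partly built in. Among genes with a mean over 6, 9.11% were higher in RPMI8226 and 5.52% in MMS1. NRF2, encoded by NFE2L2, turns on enzymes that make glutathione and reduce quinones and carbonyls. Of 21 measured genes, 10 were higher in RPMI8226 and 2 in MMS1 (57.1% called, against 10.3% of all genes), with a median difference of 0.36 against 0.025. SLC7A11, the cystine importer that feeds glutathione synthesis, read 9.47, 9.68 and 9.52 against 7.31, 7.52 and 7.79, a 4.04-fold difference on all 3 probe sets (limma, adjusted p = 4.16e-07). AKR1C1, an aldo-keto reductase that acts on steroids and carbonyls, read 11.14, 11.26 and 11.26 against 10.04, 9.97 and 10.09 (2.28-fold). AKR1C2 (2.27-fold) and AKR1C3 (1.98-fold) were higher too. AKR1C1 and AKR1C2 are nearly identical, and on specific probe sets their calls were lost (adjusted p = 0.116 and 0.635). GCLM, a subunit of the enzyme that makes the glutathione precursor, was 1.67-fold higher.

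The list did not move as one. NQO1, a quinone reductase and a standard NRF2 target, read 9.19, 9.22 and 9.19 in RPMI8226 and 9.98, 9.90 and 10.02 in MMS1, 1.7-fold higher in MMS1. TALDO1, of the pentose phosphate pathway, was 1.49-fold higher there, and HMOX1 read 5.77 in both. Of the list's called members, 5 were called in the same direction in the miR-16 sponge arrays and 1 in the opposite direction. With 1 control array left out, 5 to 10 of the list were called higher in RPMI8226 (5 without MMS1 array 1 or RPMI8226 array 3, 6 without MMS1 array 2, MMS1 array 3 or RPMI8226 array 2).

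Amino acid supply went the same way. ATF4 is a translation-controlled factor that raises genes for amino acid synthesis and import. Of 21 genes of this response, 9 were higher in RPMI8226 and 1 in MMS1 (47.6% called), with a median difference of 0.25. Besides SLC7A11 they were led by SESN2, a stress-induced inhibitor of mTORC1 (9.02, 9.02 and 9.07 against 8.04, 7.75 and 7.80, 2.25-fold), by SLC7A5, the importer of large neutral amino acids (1.97-fold), and by PSAT1, of serine synthesis (1.69-fold). The 1 exception was ATF5 (1.66-fold higher in MMS1). ATF4 itself and ASNS, asparagine synthetase, differed by 0.18 and 0.23 and were not called. Of the 10 called members, 7 were called in the same direction in the miR-16 sponge arrays and 1 in the opposite direction. The count of 9 higher in RPMI8226 fell to 6 without MMS1 array 2. DDIT3, a stress factor listed with the unfolded protein response, was 1.64-fold higher in RPMI8226. Of 24 genes of that response 3 were called (12.5%, against 10.3% of all genes). In the respiratory chain 3 of 26 were called (11.5%), with SDHA, a subunit of complex II, 1.77-fold higher in MMS1.

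Most genes of lipid synthesis and hypoxia were not called, and those that were lay mainly in RPMI8226, where 6.52% of all genes were higher, against 3.8% in MMS1. Of 18 genes of cholesterol and fatty acid synthesis, 5 were higher in RPMI8226 and 0 in MMS1 (3 and 0 without RPMI8226 array 3). SQLE, squalene epoxidase, read 10.52, 10.63 and 10.58 against 9.14, 9.09 and 9.11, a 2.75-fold difference on all 4 probe sets. FASN, fatty acid synthase, read 9.96, 9.87 and 10.01 against 9.13, 9.02 and 9.04 (1.84-fold). The other 3 were ACACA, SREBF2 and SCD, at 1.38- to 1.51-fold, each of which lost its call without at least 1 control array. Neither SQLE nor FASN differed at the threshold between the miR-16 sponge arrays of the lines (limma, adjusted p = 0.188 and 0.129). Of 27 genes of hypoxia and glycolysis, 6 were higher in RPMI8226, among them BNIP3 (1.82-fold), which marks mitochondria for removal, and VEGFA (1.75-fold), and 2 in MMS1, NDRG1 (1.93-fold) and PFKP. LDHA, bright in both lines, was not called (13.74 and 13.6).

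Some antigen presentation and interferon genes were higher in MMS1, 8 of 20 and 6 of 28, and 0 of either list were called the other way, where 3.8% of all genes were higher in MMS1. HLA class I molecules with their light chain B2M carry peptides, cut by the immunoproteasome, to the cell surface, and interferons raise these genes together with antiviral effectors. Of 20 antigen presentation genes, 8 were higher in MMS1 and 0 in RPMI8226 (40% called; 7 without any 1 control array). HLA-C read 10.01, 10.07 and 10.03 in RPMI8226 and 10.97, 10.77 and 10.87 in MMS1 (1.78-fold), and B2M read 12.04, 12.11 and 12.03 against 12.57, 12.52 and 12.69 (1.45-fold). HLA genes resemble one another and their probe sets may share signal, and B2M lost its call on specific probe sets (adjusted p = 0.12). PSMB9 and PSMB8, subunits of the immunoproteasome, were 1.85- and 1.7-fold higher in MMS1, and in the proteasome list PSMB10 was 1.61-fold higher and PSME1, a subunit of the proteasome activator, read 8.79, 8.73 and 8.73 against 9.58, 9.56 and 9.55 (1.75-fold). PSMB8, PSMB9 and PSMB10, the inducible subunits, were all higher in MMS1, while of 31 proteasome genes 5 were higher in MMS1 and 4 in RPMI8226 (0 in RPMI8226 without MMS1 array 2 or RPMI8226 array 3, 1 without MMS1 array 1 and 2 without RPMI8226 array 2; 3 in MMS1 without MMS1 array 1 or 3 or RPMI8226 array 2 or 3). In the miR-16 sponge arrays HLA-E kept its direction and call, and PSMB9 and HLA-B were called higher in RPMI8226.

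Of 28 interferon response genes, 6 were higher in MMS1 and 0 in RPMI8226 (21.4% called). ISG15, a ubiquitin-like modifier, read 8.18, 8.28 and 8.40 against 9.25, 9.09 and 9.07 (1.8-fold, adjusted p = 0.000185). IFITM3 and its near copy IFITM2, which block viral entry, were 1.83- and 1.82-fold higher, and IRF7, the factor that amplifies interferon production, read 5.89, 5.87 and 5.78 against 6.8, 6.66 and 6.79. OAS3 and IFI35 were 1.58- and 1.37-fold higher in MMS1. The call of IFI35, like that of PSMB10 above, was lost without MMS1 array 1 or 3 or RPMI8226 array 2 or 3. Other classic members were dim and not called, among them IFIT1 (4.73 and 4.87) and MX1 (5.28 and 5.3), so 22 of the 28 did not pass. In the miR-16 sponge arrays, 0 of these 6 genes kept the call and 2 of them, ISG15 and IFI35, were called higher in RPMI8226.

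The promoters of 4 of these genes are shown because each holds 2 copies of GAAA with 2 bases of any kind between them, a core of the element bound by interferon-activated factors. They are the 250 bases before the RefSeq start on GRCh38.p14, 5′ to 3′ on the gene's strand, with the motif, on either strand, in capitals: ISG15 at chr1:1013247-1013496 (plus strand), IFITM3 at chr11:320861-321110 (minus strand), OAS3 at chr12:112938224-112938473 (plus strand) and B2M at chr15:44711267-44711516 (plus strand).
ISG15: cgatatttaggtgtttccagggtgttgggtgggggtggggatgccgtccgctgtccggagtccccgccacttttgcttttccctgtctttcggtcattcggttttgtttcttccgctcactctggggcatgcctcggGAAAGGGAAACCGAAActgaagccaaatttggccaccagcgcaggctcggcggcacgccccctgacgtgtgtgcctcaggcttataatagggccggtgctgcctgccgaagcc
IFITM3: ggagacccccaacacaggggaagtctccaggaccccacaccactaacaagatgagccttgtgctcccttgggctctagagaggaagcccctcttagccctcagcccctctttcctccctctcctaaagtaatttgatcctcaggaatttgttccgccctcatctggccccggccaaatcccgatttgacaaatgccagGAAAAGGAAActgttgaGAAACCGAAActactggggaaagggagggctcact
OAS3: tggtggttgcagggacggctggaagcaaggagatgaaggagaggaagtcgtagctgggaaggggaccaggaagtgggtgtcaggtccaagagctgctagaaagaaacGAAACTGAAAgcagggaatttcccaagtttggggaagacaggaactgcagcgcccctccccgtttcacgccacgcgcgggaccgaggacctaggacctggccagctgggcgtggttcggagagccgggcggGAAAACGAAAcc
B2M: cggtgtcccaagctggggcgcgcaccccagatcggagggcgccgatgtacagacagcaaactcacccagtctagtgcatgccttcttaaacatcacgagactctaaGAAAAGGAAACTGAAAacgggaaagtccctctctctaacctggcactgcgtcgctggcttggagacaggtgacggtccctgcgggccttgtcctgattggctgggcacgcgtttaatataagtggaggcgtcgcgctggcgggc
In ISG15 and B2M the matches overlap, starting 113 and 107 bases before the start in ISG15 and 144 and 138 in B2M. In IFITM3 they start 52 and 35 bases before it, and in OAS3 143 and 12. The motif was searched on both strands over 300 bases, 250 before the start to 50 after it, and stood in 3.65% of 27305 promoters of the table. It was in 4 of 11 called members of the 2 lists that have a promoter there (36.4%) and in 16 of 27 members not called (59.3%). A match is a description of the letters, and these shares were not tested.

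Most of the called mitosis genes were higher in MMS1. Of 30 measured, 12 were higher in MMS1 and 4 in RPMI8226 (53.3% called, against 10.3% of all genes). Among genes with a mean over 6, 5.52% were higher in MMS1 and 9.11% in RPMI8226. PTTG1, securin, read 11.00, 11.05 and 11.05 in RPMI8226 and 11.74, 11.70 and 11.77 in MMS1 (1.63-fold), CDC20, the activator of the anaphase-promoting complex, was 1.56-fold higher in MMS1, and CDK1, the mitotic kinase, read 9.48, 9.47 and 9.46 against 9.90, 10.11 and 10.22 (1.52-fold). AURKA, AURKB, PLK1, CCNB1, CCNB2, KIF20A, KIF2C, TPX2 and TOP2A made up the rest of the 12, all under 2-fold. The 4 higher in RPMI8226 were ASPM, a spindle pole protein (1.64-fold), BUB1, a checkpoint kinase (1.52-fold), CENPE (1.51-fold), a kinetochore motor, and CENPF (1.44-fold). ASPM read 8.33, 8.32 and 8.35 against 7.53, 7.52 and 7.82. CENPF was called on 1 of 3 probe sets and read -0.02 on specific ones, where ASPM read 0.34 and lost its call (adjusted p = 0.1). CENPE kept its call without MMS1 array 1 but not without any other control array.

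Of the 16 called mitosis genes, 11 were called in the same direction in the miR-16 sponge arrays and 0 in the opposite direction. These differences were small, and the count of 12 fell to 6 without MMS1 array 1, without MMS1 array 3 or without any 1 of the RPMI8226 arrays. The count of 4 fell to 2 without RPMI8226 array 3. MKI67, a marker of cycling cells, read 7.85 to 8.09 and 7.98 to 8.03 and was not called. Of 30 DNA replication genes 2 were called (6.67%, against 10.3% of all genes), TK1 (1.57-fold higher in MMS1) and POLE (1.39-fold higher in RPMI8226). POLE lost its call without MMS1 array 2 or 3 or RPMI8226 array 2. Of 12 cell cycle brakes, 2 were higher in MMS1, CDKN1C (1.73-fold), an imprinted inhibitor of cyclin-dependent kinases, and RBL2 (1.32-fold), a retinoblastoma relative. RBL2 lost its call without any 1 control array, and CDKN1C on specific probe sets (-0.38, adjusted p = 0.0736). CDKN1A and CDKN2A differed by 0.12 and 0.07 and were not called.

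Of 14 myeloma translocation partners and cyclins D, 3 were higher in RPMI8226 and 1 in MMS1, where 6.52% and 3.8% of all genes were, and the list's median difference was -0.01. MYC read 11.32, 11.36 and 11.43 against 10.59, 10.48 and 10.57 (1.78-fold, adjusted p = 7.49e-05), MYCL read 7.25, 7.19 and 7.31 against 6.04, 5.76 and 6.07 (2.45-fold), and FGFR3, a receptor tyrosine kinase placed under an immunoglobulin enhancer in some myelomas, was 1.78-fold higher. All 3 were called in the same direction in the miR-16 sponge arrays, by 0.78, 1.59 and 1.11 on the log2 scale. CCND3 was 1.44-fold higher in MMS1, and CCND1 and CCND2 were not called. Of the BCL2 family and death receptors, 4 of 24 were higher in RPMI8226 and 0 in MMS1 (1 without MMS1 array 2 or RPMI8226 array 3, 2 without MMS1 array 1, MMS1 array 3 or RPMI8226 array 2). PMAIP1, the BH3-only protein NOXA, led with 1.85-fold. TNFRSF10B and BCL2L2 followed with log2 differences of 0.53 and 0.44, and then MCL1 with 0.42 (1.34-fold). Specific probe sets did not show the MCL1 difference (0.1, limma, adjusted p = 0.641). BCL2, a known target of miR-16, read 6.68 in both lines.

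Of 16 genes of microRNA processing and the miR-15/16 hosts, 4 were higher in RPMI8226 and 0 in MMS1, where 6.52% and 3.8% of all genes were. AGO1 and AGO4, Argonaute proteins that hold the guide strand, were 1.57- and 1.81-fold higher in RPMI8226, and XPO5, which exports precursors from the nucleus, 1.48-fold. AGO4 read 7.78, 7.83 and 7.86 against 6.89, 7.15 and 6.87, but only 1 of its 4 probe sets was called. SMC4, the host gene of miR-15b and miR-16-2, was 1.34-fold higher (9.2 ± 0.01 against 8.78 ± 0.19, SD, n = 3 each), just past the threshold (adjusted p = 0.0493), and that call was lost in most alternatives. DLEU2, the host of miR-15a and miR-16-1, read 6.62 and 6.83 and was not called (adjusted p = 0.356). Mature miRNA levels were not measured by these arrays.

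Cytokine genes differed in both directions. IL32 read 9.77, 9.63 and 9.73 in RPMI8226 and 8.05, 7.94 and 7.97 in MMS1 (3.31-fold), and CXCL8, the neutrophil chemokine, read 7.58, 7.57 and 7.68 against 6.48, 6.11 and 6.74 (2.25-fold). IL6, a growth factor of myeloma cells, was 1.68-fold higher in RPMI8226, and IL6R 1.38-fold. With CXCL3 these were 5 of 31 higher in RPMI8226 (3 without MMS1 array 1 or 3 or RPMI8226 array 2 or 3), against 2 higher in MMS1, IL2RG and TGFB1. That is 22.6% called, where 6.52% of all genes were higher in RPMI8226 and 3.8% in MMS1. IL6R and TGFB1 each lost the call without several single control arrays. Among genes of BMP signalling, ID3 read 7.07, 7.10 and 7.09 against 5.64, 5.39 and 5.32, 3.12-fold higher in RPMI8226, and ID1, whose call was lost without MMS1 array 1 or 2 or RPMI8226 array 1 or 3, and SMAD9 were higher there too, opposite to ID2. That gave 4 of 17 higher in RPMI8226 and 1 in MMS1 (29.4% called, against 10.3% of all genes). JUN was 1.64-fold higher in RPMI8226 but 0.13 on specific probe sets (adjusted p = 0.716). JUNB was 1.37-fold higher in MMS1, a call lost without MMS1 array 1 or 3 or RPMI8226 array 3 (adjusted p = 0.0621 to 0.0978).

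Adhesion and matrix genes were split between the lines. ITGA4, the alpha4 integrin that binds fibronectin, read 5.83, 6.34 and 6.15 in RPMI8226 and 4, 4 and 4.46 in MMS1, with all 4 probe sets called. It moved with FN1, while VIM, vimentin, read 13.11, 13.20 and 13.20 against 14.12, 14.08 and 14.14 (1.93-fold higher in MMS1). LGALS1, galectin-1, read 9.96, 9.89 and 9.90 against 11.25, 11.13 and 11.19 (2.42-fold), and SPARC was 1.72-fold higher in MMS1. Of 30 genes, 2 were higher in RPMI8226 and 3 in MMS1, 16.7% against 10.3% of all genes, with the count in RPMI8226 at the share of all genes. All 5 were called in the same direction in the miR-16 sponge arrays. The annexins other than ANXA1 and ANXA6 (1.67-fold higher in RPMI8226 on 1 of 2 probe sets) did not pass, including ANXA2 and ANXA5 (-0.23 and -0.08).

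The HOX and cancer-testis lists had shares called near the 10.3% of all genes, 13.8% and 11.5%, and the imprinted list 33.3%. Besides MEG3 and CDKN1C, PHLDA2 was higher in MMS1, and PLAGL1 (2.63-fold, 7.71, 7.78 and 7.86 against 6.23, 6.35 and 6.57), GRB10 (1.79-fold) and DIRAS3 were higher in RPMI8226, so 6 of 18 imprinted genes were called. The calls of PHLDA2 and HOXB4 were lost without any 1 control array, and those of DIRAS3 and MAGEC1 without several. DLK1, the protein-coding neighbour of MEG3, was bright in both lines and not called (12.73 and 12.39, adjusted p = 0.0615). Of 29 HOX and partner genes, HOXB9 was 2.67-fold higher in RPMI8226 (8.36, 8.45 and 8.37 against 7.01, 6.75 and 7.18), whereas HOXB2 (1.52-fold), HOXB4 (1.33-fold) and PBX3 (1.86-fold) were higher in MMS1. Of 26 cancer-testis genes, MAGEC2 was higher in RPMI8226 and TEX19 and MAGEC1 in MMS1. MAGEC2 read -0.72 on its specific probe set (adjusted p = 0.0574), opposite to its brightest one. Of 20 myeloid genes CEBPA and ITGAM were higher in RPMI8226 and CST3 in MMS1, with differences of 0.63, 0.68 and -0.36. The calls of ITGAM and CST3 were lost without several single control arrays.

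Called genes were not spread evenly over the chromosomes. Gene order was taken from the RefSeq table of GRCh38.p14 for genes with a mean over 6. On chromosome 7, 129 of 569 genes were higher in RPMI8226 (22.7%, against 9.11% of all such genes) and 16 in MMS1. On chromosome 16, 81 of 551 were higher in MMS1 (14.7%, against 5.52%) and 19 in RPMI8226. Among 11749 stretches of 20 neighbouring genes the median difference had a median of 0.04, with 2.5% of them below -0.13 and 2.5% above 0.22, and the 3 highest stretches that do not overlap all lay on chromosome 7 and the 3 lowest all on chromosome 16.

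The stretch from USP42 to VWDE had a median of 0.49, with 14 of 20 genes called higher in RPMI8226, among them PHF14 (7.16 ± 0.03 against 6.31 ± 0.05, SD, n = 3 each). The stretch from STEAP1B to SNX10 had a median of 0.51 and 11 called, with IL6, CYCS (cytochrome c, 1.74-fold), HNRNPA2B1 (1.48-fold, not called without MMS1 array 1 or 2 or RPMI8226 array 2) and CBX3, a heterochromatin protein that read 11.00, 11.07 and 11.05 against 9.89, 10.22 and 10.19. The stretch from MRPS17 to RABGEF1P1 had a median of 0.46 and 9 called, led by CCT6A, a chaperonin subunit (2.09-fold). Each gene was centred on its mean over the 12 arrays, and the deviations were averaged over the 20 genes of a stretch. In the 3 chromosome 7 stretches these averages were -0.36 to -0.25 on the MMS1 control arrays and between -0.1 and 0.23 on the arrays of the other 3 groups. The MMS1 control arrays were the low ones. The same stretches had medians of -0.02, 0.02 and 0.09 between the lines in the miR-16 sponge arrays.

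On chromosome 16 the lowest stretch ran from CYLD to NUP93, with a median of -0.58 and 12 of 20 genes called higher in MMS1. It holds a metallothionein cluster, small proteins that bind zinc and copper, and 7 of the 12 were metallothioneins. MT2A read 13.15, 13.18 and 13.11 against 14.15, 14.11 and 14.14 (1.98-fold), and MT1X read 12.16, 12.18 and 12.16 against 13.35, 13.27 and 13.30 (2.2-fold). Metallothionein copies are nearly identical and their probe sets may read several of them. The other 5 called genes were RBL2, NUDT21 (1.66-fold, an mRNA cleavage factor), OGFOD1, BBS2 and NUP93. The median was -0.5 in the miR-16 sponge arrays, with 11 called. The stretch from WDR59 to CENPN had medians of -0.33 and -0.24 in the control and sponge arrays. The stretch from RBFOX1 to SNN, which holds SOCS1 and ATF7IP2 (-1.47), had -0.32 and 0.01.

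**Figure D5:**
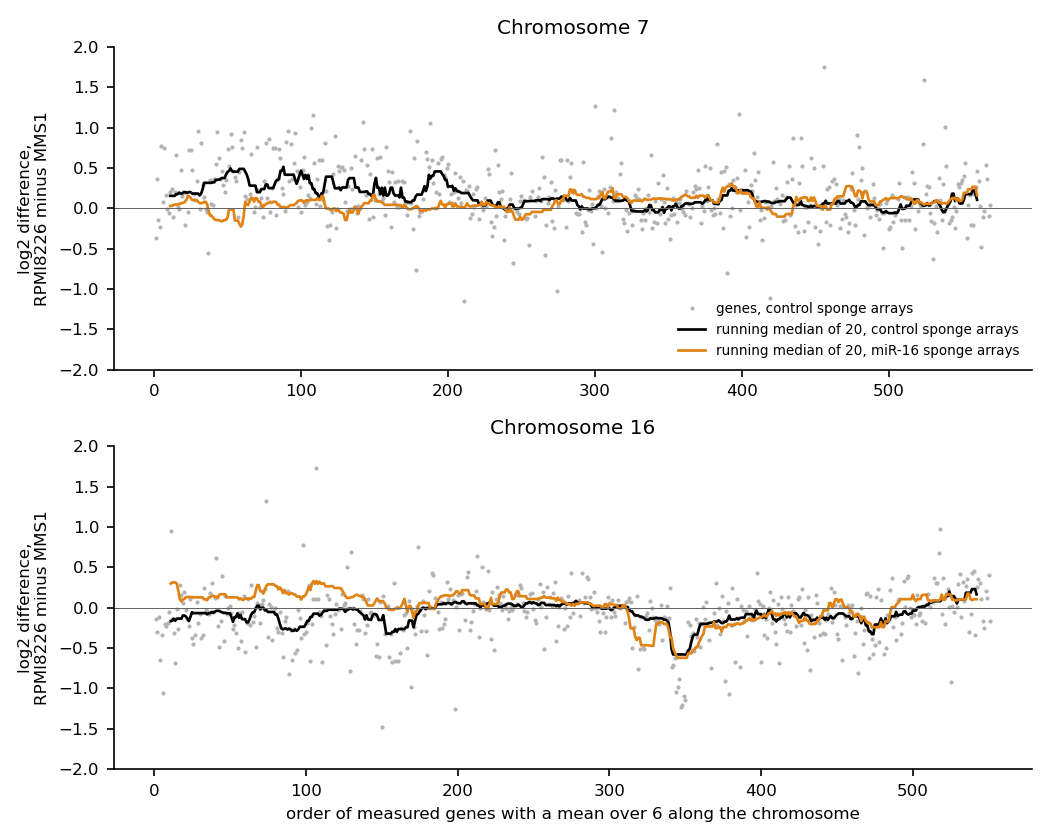
Log2 difference RPMI8226 minus MMS1 on the y axis against the order of measured genes along chromosomes 7 and 16; grey points are genes in the control sponge arrays, the black line their running median over 20 genes and the orange line that of the miR-16 sponge arrays. The black line is above the orange one along the first part of chromosome 7, and both lines dip together at the CYLD to NUP93 stretch of chromosome 16.

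The 6 miR-16 sponge arrays are other samples of the same labelled lines and give the same contrast with no array shared. The tests of both contrasts used 1 estimate of the spread from all 12 arrays, so their calls are not independent. There 4070 genes were called (20.6%), with 12.2% of all genes higher in RPMI8226 and 8.38% higher in MMS1. Of the 2041 genes called in the control arrays, 993 were called in the same direction (48.7% of the control calls and 24.4% of the sponge calls), 143 in the opposite direction and 905 were not called. Of the 169 genes at least 2-fold higher in RPMI8226, 104 were called in the same direction and 23 in the opposite one, and the median difference went from 1.34 to 0.64. Of the 106 at least 2-fold higher in MMS1, 50 and 14 were, and the median went from -1.24 to -0.37. The genes were chosen on the control arrays, so some decline is built into these medians.

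CD36 (2.43), GJA1 (1.99), FN1 (1.25), ZFP42 (0.76) and RHAG (0.49) kept their direction and call in the miR-16 sponge arrays, as did LAPTM5 (-2.79), HMGA2 (-2.78), ID2 (-1.66), DOCK2 (-1.05) and FYB1 (-0.88). RAC2 and TMSB4X also did, with -1.14 and -3.49. HBB and HBD were higher in RPMI8226 there too (2.04 and 1.98), but HBZ was 0.86 higher in RPMI8226, the reverse of the control arrays. MEG3, EXOC6B and MFNG were not called there (-0.33, -0.03 and -0.38). NLRP7, ANXA1, KCNC2 and SOSTDC1 were called higher in MMS1 there (-0.84, -1.31, -2.31 and -2.89), the opposite of the control arrays.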

How the data were processed

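RNA from 12 samples was hybridised to Affymetrix arrays, after 2 rounds of linear amplification per the labels' protocols. The authors deposited log2 values per probe set, bounded at 4. The sources used here do not give the summarization and normalization. The 62 control probe sets were left out. Of the probe sets, 41097 named 1 gene, 1801 several and 11777 none. For each gene the brightest probe set, by its mean over the 12 arrays, was kept from those that name no other gene.

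All 12 arrays were fitted as 4 groups of 3 with limma 3.58.1 (lmFit, eBayes; R 4.3.3), and p-values were Benjamini-Hochberg adjusted over 54613 probe sets. Adjusted p-values in the text are limma's. Tables were made with pandas 2.3.3 and numpy 2.4.6 in Python 3.11.15, and plots with matplotlib 3.10.9. The scripts were tested on simulated data. The 3 arrays of a group limit the precision.

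The members and the 36 lists were chosen with earlier results of these data known. Named genes were the 15 largest non-overlapping called differences each way, up to 6 called members of each list by p, defining markers, genes switched between under 5 and over 8, called genes of the outlying stretches, and the largest differences kept in the miR-16 sponge arrays. Other names were chosen after their values were seen. A few genes are not reported here. Gene order and promoters came from RefSeq tables of GRCh38.p14; 19735 gene IDs matched and 42 did not. Alternatives were quantile normalization, array weights, a trended robust prior, the 6 control arrays alone, a floor on signal, gene means, specific probe sets, a stricter threshold, a replicate block and leaving out each array.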

Additional observations from a re-analysis of the deposited data

Results flagged for a closer look

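The difference between the lines was not the same in the control and the miR-16 sponge arrays for 27 of the 30 genes that led the comparison, by limma's test of the interaction (adjusted p under 0.05). The values are the log2 difference in the sponge arrays minus that in the control arrays. Since these genes were picked for large differences in the control arrays, a shift toward 0, and with it the high number that passed, is partly built in. Among genes higher in MMS1 controls it was 5.88 for TEX19, 4.48 for MEG3, 4.43 for EXOC6B, 3.8 for MFNG, 3.53 for RAP1A, 3.01 for FYB1 and 3.0 for LINC00462. It was 2.93 for PLA2G2A, 2.74 for CA1, 2.38 for PASD1, 2.22 for SNHG24, 2.0 for LAPTM5, 1.65 for DOCK2 and 1.15 for ID2. Among genes higher in RPMI8226 controls it was -5.43 for KCNC2, -5.24 for SOSTDC1, -4.68 for ANXA1, -4.37 for NLRP7, -3.33 for USP22, -2.86 for KRT8 and -2.62 for RHAG. It was -2.42 for ZFP42, -2.24 for CD36, -2.04 for MAGEC2, -1.72 for CCDC144NL-AS1, -1.61 for FMNL2 and -1.6 for FN1. The MMS1 arrays moved further than the RPMI8226 arrays in most of these genes. MEG3 had means of 10.45 and 5.89 on the MMS1 control and sponge arrays, against 5.65 and 5.56 in RPMI8226, and KCNC2 4.41 and 10.18 against 7.53 and 7.87. TEX19 moved in both lines, from 11.94 to 7.8 in MMS1 and from 8.26 to 10.01 in RPMI8226.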

How the results depend on the processing

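With 1 of the 12 arrays left out, 2747 to 5379 probe sets, 790 to 1551 genes higher in RPMI8226 and 462 to 892 higher in MMS1 were called. Those at least 2-fold different were steadier, 161 to 180 and 101 to 113. Counts fell by more than 1.5 times without MMS1 array 1 (2747 probe sets, 830 and 462 genes), MMS1 array 2 (2915 probe sets, 811 genes higher in RPMI8226), RPMI8226 array 2 (2826 probe sets, 818 and 495 genes) and RPMI8226 array 3 (2788 probe sets, 790 genes higher in RPMI8226). Of the 830 and 462 genes, 814 and 458 were also called with all arrays. Fewer probe sets were called among specific ones (2605) and at adjusted p under 0.01 (2235, with 665 and 410 genes). With the replicate number as a block, 3767 probe sets and 1058 and 644 genes were called. Deviations of same-numbered control arrays of the lines correlated at -0.064, 0.006 and -0.005, so no pairing by number was seen in them. With 3 arrays a group, these values cannot tell whether the numbers mark shared rounds of culture or lysis. In the miR-16 sponge arrays 4070 genes differed between the lines, 2901 to 3937 without 1 array and 3715 with the block, alternatives chosen after seeing the data. On specific probe sets the difference changed sign for ALAS2 (0.04), ITGAM (-0.03), MAGEC2 (-0.72), ANXA6 (-0.01), CANX (-0.48), NDUFA2 (0.16), RAP1A (0.13), HMGA2 (0.04) and CENPF (-0.02); the cause was not tested. Of 177 called named genes, 67 lost the call in at least 1 alternative other than the stricter threshold.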
